A study of Mus musculus with 2 samples.

Results

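Genes of DNA replication and of mitosis were compared between 2 RNA-seq libraries of mouse regulatory T cells (Treg cells, Foxp3-positive CD4+ T cells that hold immune responses in check). The genes were a list of 49 symbols, 21 for S phase and 28 for mitosis. They were chosen by known function. Each was found by its symbol among the 24081 genes of the deposited count table, and all 49 passed the floor used here, a mean of at least 20 reads over both libraries, which 10899 genes passed.

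Cells were sorted as CD4+ YFP+ from spleen and lymph nodes of 5-week-old C57BL/6 mice, with cells of 5 to 10 mice pooled for each library. All mice had 1 Foxp3 allele with a Cre recombinase and 1 wild-type Foxp3 allele (Foxp3cre/wt), so that Foxp3 expression drove Cre. Mice of the control library (titled WT) had 1 floxed and 1 wild-type allele of the targeted gene, which belongs to the SUMO pathway, and mice of the knockout library (titled KO) had 2 floxed alleles. Foxp3 lies on the X chromosome, so that in such animals other Treg cells express the wild-type Foxp3 allele and no Cre, and the YFP sort takes the Cre-expressing cells. The title of the series names Treg expansion, which is the question that the proliferation genes bear on. Directions rest on the sample titles, because the genotype field calls both samples wild type. There was 1 library per group: differences were not checked in replicates and carry no p-value. Intervals are exact 95% intervals that cover counting error only, since the reads carry no molecular identifiers as far as the labels say.

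A cell that divides first licenses its replication origins by loading the MCM helicase, then copies its DNA with a supply of new nucleotides, and then condenses and separates its chromosomes on the mitotic spindle. E2F factors drive the genes of the first steps. The MuvB complex, with MYB and FOXM1 proteins, drives those of mitosis. In resting cells both sets are held low, and in the steady state a part of the Treg cells of lymphoid organs is in cycle.

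Summed reads of proliferation genes were nearly the same in the 2 libraries. The 21 S phase genes together had 1145 reads per 1000000 (RPM) in the WT library (1126 to 1164, exact Poisson interval), against 1160 for KO (1146 to 1174), a ratio of KO over WT of 1.01 (0.993 to 1.03). The 28 mitosis genes together had 1866 (1842 to 1891) and 1827 (1809 to 1844), a ratio of 0.979 (0.963 to 0.995). That sum is mostly 1 gene, Smc4, which took 79.1% of it in WT and 79.5% in KO, and the other 27 mitosis genes had 390.5 and 374.2, a ratio of 0.958 (0.925 to 0.993). Neither direction of the full sums was stable to the processing. With total gene reads as library size the S phase sum was lower in KO (log2 ratio -0.058). With a GC and length trend removed the mitosis sum was higher (0.10). Smc4 was then at 0.14, while the median of the other 27 mitosis genes was -0.13. RPM values are counted over library sizes scaled by TMM, a method that sets most genes to no difference. In bulk RNA, fewer cells in cycle and less RNA per cycling cell cannot be told apart. The libraries held 11662867 (WT) and 23789264 (KO) reads in genes.

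Few members differed by 1.5-fold, the size used here to call a gene higher or lower on the log2 ratio with a pseudocount of 1. A ratio of 1.5-fold or more in favour of KO was found for 2 of the 49 genes, both of the mitosis list, against 7.43% of all genes above the floor. Another 4 were at least 1.5-fold lower, 1 of the S phase list and 3 of the mitosis list, against 5.51% of all genes. In either direction that is 12.2% of the members and 12.9% of all genes, so the share among the members is near the background. None of the 49 was 2-fold different. The median log2 ratio was -0.08 for the S phase list (0.03 for its 18 genes with a mean of at least 100 reads) and -0.14 for the mitosis list, compared with 0.01 for all genes, and the SD over genes was 0.33, 0.37 and 0.46. The counting interval lay wholly above no difference for 10 members and wholly below it for 13, against 29.1% and 25.6% of all genes. The plot of ratios by role shows each gene with its reads.

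**Figure D1:**
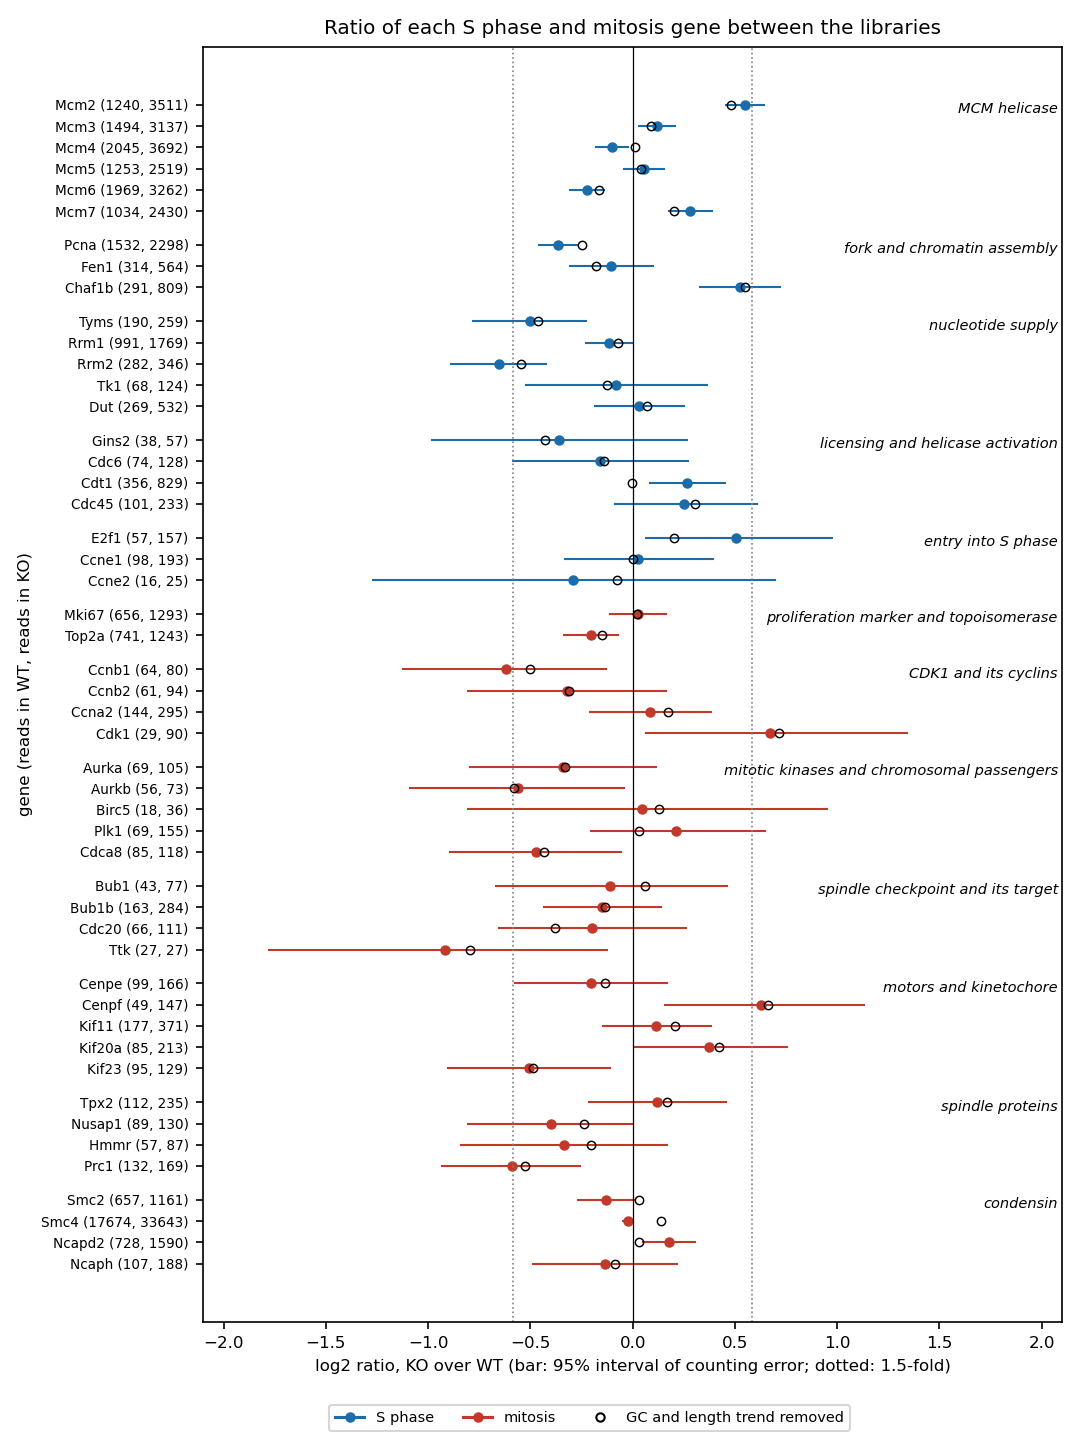
Log2 ratio of KO over WT for each of the 49 genes, by role, with the reads of both libraries beside the name. Filled points are ratios with a pseudocount of 1, bars the exact 95% interval of counting error without it, open circles the ratio after the GC and length trend is removed, and dotted lines mark 1.5-fold. Most points lie between the dotted lines, and the widest bars belong to genes with few reads such as Ttk (27 and 27).

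The 2 lists differ in the control sequences of their promoters, a feature the choice of genes did not use. RefSeq promoter windows of GRCm38.p6, 250 bases before to 50 after a transcription start, were matched by symbol to 41 of the 49 genes (18 of the S phase and 23 of the mitosis list). Both strands were searched for CCAAT, the NF-Y box, for TTTGAA, the cell cycle homology region (CHR) that MuvB complexes bind, and for 3 forms of the E2F site. Those forms are TTTGGCGC and TTTCGCGC, and also TTTCCCGC. Matches of the E2F forms to opposite strands can overlap each other. Of the mitosis windows 75.0% held both CCAAT and the CHR (18 of 24 windows, 17 genes), compared with 4.76% of 10717 windows of genes above the floor and 6.95% of all 32851 windows. Of the S phase windows 10.0% held both. An E2F form was in 30.0% of the S phase windows (6 of 20) and in 8.33% of the mitosis windows (2 of 24), compared with 3.53% for genes above the floor and 1.845% of all windows. In 14 of the 24 mitosis windows the CHR began within 50 bases after the start of a CCAAT, an arrangement chosen after the matches were seen and present in 1.41% of windows of genes above the floor. A match describes letters and does not show that a factor binds there. Some windows, such as those of E2f1 and Cdc6, lie wholly inside the annotated gene, so that sequence before its first base was not searched.

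Promoter stretches are given for 4 mitosis genes, of which Cdk1, Cenpf and Ttk were at least 1.5-fold different and Ccnb2 was not, and for 3 S phase genes. They run 5′ to 3′ on the gene's strand, from 170 bases before to 20 after the RefSeq start, in GRCm38.p6. Capitals mark matches to the CCAAT box, the CHR and the E2F forms on either strand, and overlapping E2F matches appear as a single longer run. Cdk1, at chr10:69352893-69353082 (minus strand), carries all 3 kinds, with a CHR close to the start. In Mcm5, at chr8:75109339-75109528 (plus strand), and Mcm6, at chr1:128359686-128359875 (minus strand), both E2F forms and CCAAT boxes occur. Rrm2, the S phase gene with the lowest ratio, at chr12:24708084-24708273 (plus strand), holds a CCAAT but none of the E2F letters searched. The other windows are Ccnb2 at chr9:70421535-70421724 (minus strand), Cenpf at chr1:189688067-189688256 (minus strand) and Ttk at chr9:83834519-83834708 (plus strand).
Cdk1: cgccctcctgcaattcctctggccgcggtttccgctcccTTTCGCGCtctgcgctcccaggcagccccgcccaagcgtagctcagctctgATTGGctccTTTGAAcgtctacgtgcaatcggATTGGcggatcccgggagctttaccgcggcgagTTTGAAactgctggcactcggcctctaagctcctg
Ccnb2: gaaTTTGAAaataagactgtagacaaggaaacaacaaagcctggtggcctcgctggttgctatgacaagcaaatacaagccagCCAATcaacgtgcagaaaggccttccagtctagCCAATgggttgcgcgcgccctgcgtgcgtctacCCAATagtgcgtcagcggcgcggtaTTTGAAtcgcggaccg
Cenpf: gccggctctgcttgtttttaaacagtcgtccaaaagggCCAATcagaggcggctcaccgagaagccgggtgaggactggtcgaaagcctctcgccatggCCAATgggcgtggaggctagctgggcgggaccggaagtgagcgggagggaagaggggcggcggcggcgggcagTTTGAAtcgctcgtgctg
Ttk: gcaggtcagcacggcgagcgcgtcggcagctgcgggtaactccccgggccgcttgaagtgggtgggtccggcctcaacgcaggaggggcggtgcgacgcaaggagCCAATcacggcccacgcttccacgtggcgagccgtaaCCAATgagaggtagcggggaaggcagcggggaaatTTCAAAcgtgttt
Mcm5: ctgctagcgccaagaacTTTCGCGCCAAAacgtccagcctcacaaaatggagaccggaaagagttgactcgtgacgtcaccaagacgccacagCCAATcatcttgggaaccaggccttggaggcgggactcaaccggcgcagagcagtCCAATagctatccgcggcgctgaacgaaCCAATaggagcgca
Mcm6: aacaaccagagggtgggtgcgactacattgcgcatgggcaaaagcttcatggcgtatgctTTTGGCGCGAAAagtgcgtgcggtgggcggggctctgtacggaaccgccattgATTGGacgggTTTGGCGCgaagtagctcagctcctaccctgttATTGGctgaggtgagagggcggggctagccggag
Rrm2: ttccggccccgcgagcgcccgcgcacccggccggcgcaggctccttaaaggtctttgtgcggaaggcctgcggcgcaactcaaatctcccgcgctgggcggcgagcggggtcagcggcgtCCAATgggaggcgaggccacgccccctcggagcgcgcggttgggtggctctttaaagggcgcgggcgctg

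**Figure D2:**
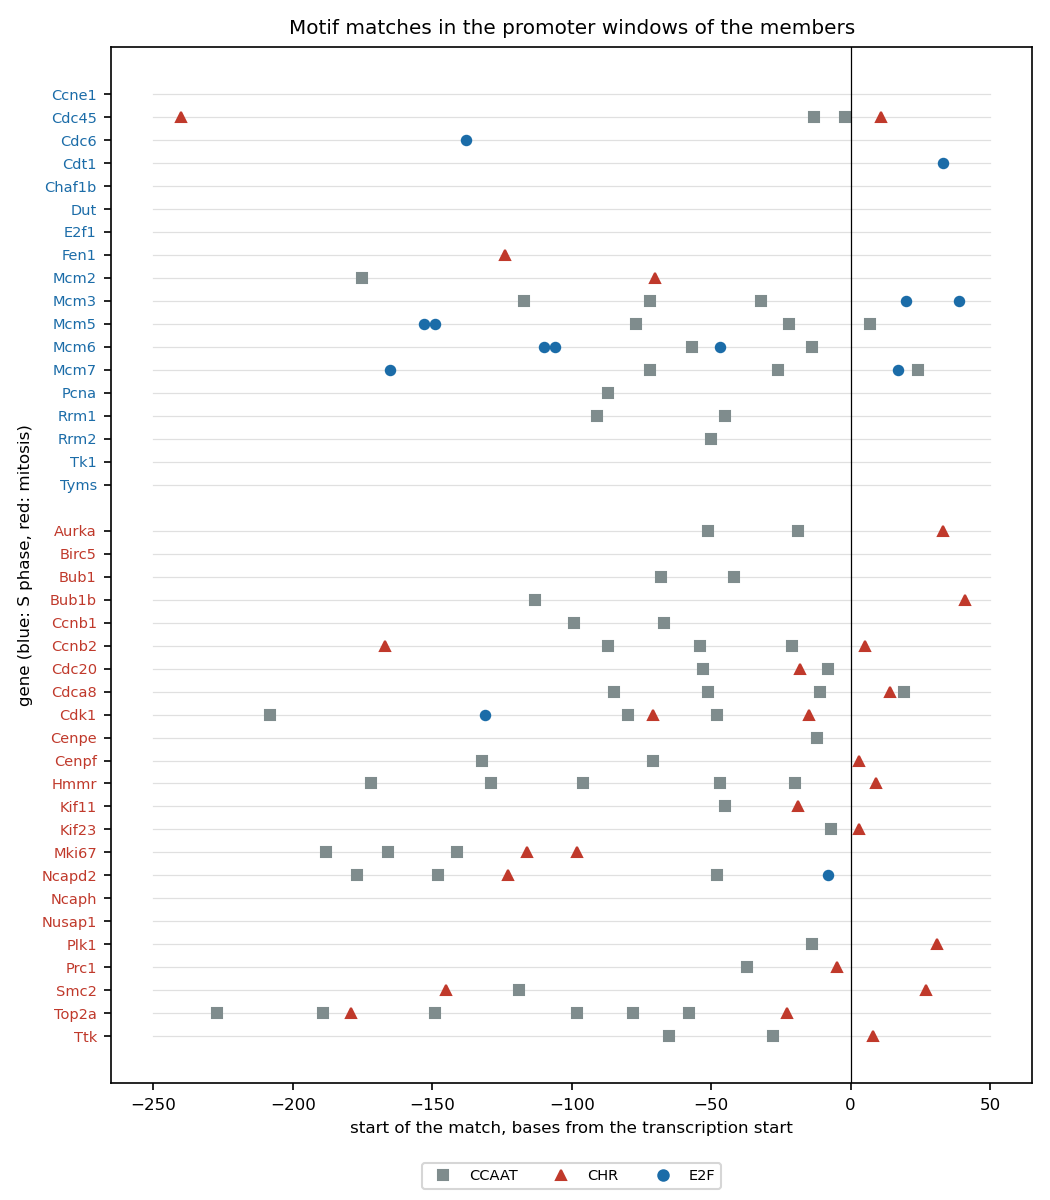
Positions of CCAAT (squares), CHR (triangles) and E2F (circles) matches on either strand, in bases from the RefSeq transcription start, for the 41 genes with a promoter window. Of a gene with several windows the window with more matches is drawn. Triangles follow squares near the start in most mitosis genes, and circles occur in 8 genes, among them Mcm3, Mcm5, Mcm6 and Mcm7.

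Ratios between the libraries were also read by these letters. The median log2 ratio was -0.14 for the 20 members with a CHR and -0.11 for the 21 without, and 0.15 for the 8 members with an E2F form and -0.14 for the 33 without. These medians are descriptions over few genes, and they were not adjusted for GC content, with which ratios rose over all genes. With the GC and length trend removed, Cdk1, Mcm7, Mcm3, Mcm5 and Ncapd2, all with an E2F form, stood at 0.72, 0.20, 0.09, 0.04 and 0.03. Cdt1, Cdc6 and Mcm6, the others with this form, stood at -0.00335, -0.14 and -0.16.

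The 6 genes Mcm2 to Mcm7 encode the MCM helicase, the ring that opens DNA ahead of the replication fork, and they took 65.9% of the S phase reads in the WT library (65.1 to 66.7 by the Clopper-Pearson method), against 69.0% for KO (68.5 to 69.6). Mcm2 had 1240 reads in WT and 3511 in KO and was 1.46-fold higher in KO (1.37 to 1.56), just under the 1.5-fold size. Mcm7 had 1034 and 2430 (1.22-fold higher, 1.13 to 1.31; exons of Ap4m1 on the opposite strand overlap 7.25% of its exons) and Mcm3 1494 and 3137 (1.09-fold higher, 1.02 to 1.16). Mcm5 had 1253 and 2519 reads, and its interval included no difference (1.04-fold, 0.971 to 1.11). Mcm4 was 1.07-fold lower (1.01 to 1.13) and Mcm6, with 1969 and 3262 reads, 1.17-fold lower (1.10 to 1.23). The subunits of 1 ring therefore differed from each other by more than counting error. Per length, Mcm2 stood at 0.422 of Mcm6 in WT and 0.722 in KO, a 1.71-fold shift (exact conditional interval 1.57 to 1.86) that does not depend on the scaling between libraries. With the GC and length trend removed, it was 1.56-fold.

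Among genes of origin licensing and helicase activation, the loader Cdt1 had 356 and 829 reads and was 1.20-fold higher in KO (1.06 to 1.37). Cdc6, which loads the helicase together with Cdt1, had 74 and 128 (0.895-fold, 0.667 to 1.21). Cdc45 and Gins2 belong to the active helicase. Cdc45 had 101 and 233 reads (1.19-fold higher, 0.941 to 1.52) and Gins2 38 and 57 (1.29-fold lower, 0.832 to 1.98). Of the 4, Cdt1 alone had an interval to 1 side of no difference, and after the trend removal its log2 ratio was -0.00335. Exons of Gse1 on the opposite strand cover 67.3% of the Gins2 exons, and no source used here says whether reads were counted by strand.

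At the fork, Pcna and Chaf1b lay on opposite sides. Pcna, the sliding clamp of DNA polymerases, had 1532 reads in WT and 2298 in KO and was 1.29-fold lower (1.21 to 1.38). Chaf1b, a subunit of the chromatin assembly factor that places histones on new DNA, had 291 and 809 reads and was 1.44-fold higher (1.26 to 1.65). The flap endonuclease Fen1, which processes Okazaki fragments, had 314 and 564 (1.08-fold lower, 0.935 to 1.24), and an antisense transcript, Gm10143, covers 78.8% of its exons. Pcna and Chaf1b kept their directions with the trend removed, at log2 ratios of -0.25 and 0.55.

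Nucleotide supply had the lowest summed ratio of the S phase roles, with fork and chromatin assembly close to it at 0.888 (0.842 to 0.938). Rrm2, the ribonucleotide reductase subunit that is made in S phase, had 282 reads in WT and 346 in KO, 1.58-fold lower (1.34 to 1.85). It was the one S phase gene at least 1.5-fold different, and with the trend removed its log2 ratio was -0.55, under that size. The larger subunit Rrm1 had 991 and 1769 reads (1.08-fold lower, 1.001 to 1.17). Per length, Rrm2 stood at 1.13 of Rrm1 in WT and 0.777 in KO, a 1.45-fold shift (1.22 to 1.74). Thymidylate synthase, Tyms, had 190 and 259 (1.42-fold lower, 1.17 to 1.72). Thymidine kinase, Tk1, with 68 and 124 reads, and the dUTPase gene Dut, with 269 and 532, had intervals that included no difference (0.696 to 1.29 and 0.882 to 1.19 for KO over WT). The 5 genes summed to 150.3 RPM in WT (143 to 157) and 130.8 in KO (126 to 136), a ratio of 0.871 (0.821 to 0.923).

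Genes of entry into S phase had few reads. E2f1, the activator of S phase genes, had 57 and 157 and was 1.42-fold higher in KO (1.05 to 1.96), and at a log2 ratio of 0.20 with the trend removed. Cyclin E genes, whose products activate CDK2, did not differ detectably at this depth. Ccne1 had 98 and 193 reads (1.02-fold, 0.795 to 1.31) and Ccne2 16 and 25 (0.808-fold, 0.415 to 1.62).

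The proliferation marker Mki67, which coats mitotic chromosomes, had 656 reads in WT and 1293 in KO (1.02-fold, 0.927 to 1.12). Top2a, the topoisomerase that untangles sister DNA, had 741 and 1243 and was 1.15-fold lower (1.05 to 1.26). In RPM per kilobase of exon, Mki67 stood at 5.44 and 5.55 and Top2a at 6.86 and 5.95. The median gene above the floor stood at 7.01 in WT and 7.19 in KO. The median mitosis gene was lower in level, at 1.91 and 1.84, and the median S phase gene at 8.50 and 7.46.

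**Figure D3:**
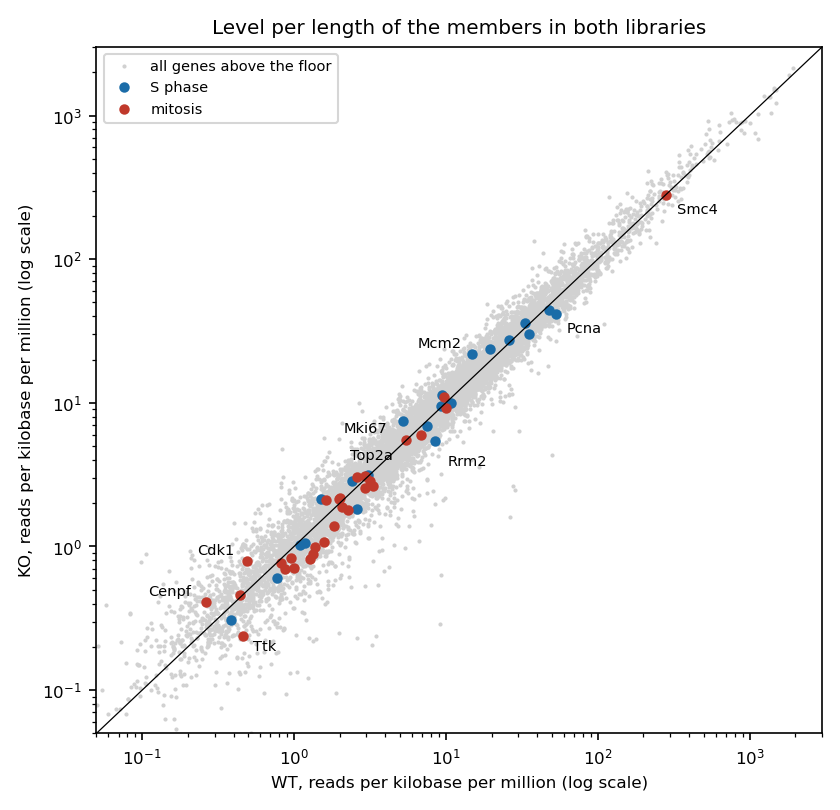
Level of each gene in the KO library against the WT library, in RPM per kilobase of exon, on log axes. Grey points are all genes above the floor, blue and red points the S phase and mitosis genes, and the line marks equal levels. The members follow the line over the whole range, from Cenpf (0.265 and 0.411) to Smc4 (283 and 279).

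Cdk1 and its B-type cyclins, which together form the kinase that starts mitosis, lay on opposite sides. Cdk1 had 29 reads in WT and 90 in KO and was 1.605-fold higher (1.05 to 2.53). Ccnb1 had 64 and 80 reads, 1.55-fold lower (1.10 to 2.18), and Ccnb2 61 and 94, 1.25-fold lower with an interval that included no difference (0.894 to 1.75). Ccna2, the cyclin of S phase and early mitosis, had 144 and 295 (1.06-fold, 0.865 to 1.302; Exosc9 exons overlap 12.5% of its exons). Within each library Cdk1 stood per length at 0.387 of Ccnb1 in WT and 0.962 in KO, a 2.48-fold shift (1.41 to 4.40). Against Ccnb2 the shift was 2.01-fold (1.15 to 3.55), and against Ccna2 1.51-fold with an interval that included no difference (0.936 to 2.501). These pairs were chosen with their values known. Ccnb1 had a log2 ratio of -0.50 with the trend removed, under 1.5-fold, and Cdk1 one of 0.72.

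Among mitotic kinases and the chromosomal passenger complex, which corrects the attachment of chromosomes to the spindle, Aurkb had 56 and 73 reads and was 1.48-fold lower (1.03 to 2.13). Its complex partner Cdca8 (borealin) had 85 and 118 and was 1.39-fold lower (1.04 to 1.86), and the ratio of the 2 genes differed by 1.06-fold between libraries (0.664 to 1.70). Birc5 (survivin), also of that complex, had 18 and 36 reads (1.03-fold, 0.572 to 1.93). Aurka, the kinase of the spindle poles, had 69 and 105 (1.27-fold lower, 0.924 to 1.74). Plk1, a kinase of mitotic entry and exit, had 69 and 155 (1.16-fold higher, 0.869 to 1.57). With library sizes taken as total gene reads Aurkb passed 1.5-fold, at a log2 ratio of -0.64.

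All 4 genes of the spindle checkpoint and its target had log2 ratios under 0, as did 5298 of the 10899 genes above the floor. The checkpoint holds cells in mitosis until every chromosome is attached. Ttk, its upstream kinase, had 27 reads in each library, which at the depth of KO is 1.93-fold lower (1.09 to 3.43), the lowest ratio of the 49 genes. Bub1 had 43 and 77 reads, Bub1b 163 and 284, and Cdc20, the activator of the anaphase-promoting complex that the checkpoint blocks, 66 and 111. Their intervals included no difference (0.630 to 1.38, 0.741 to 1.10 and 0.636 to 1.20 for KO over WT). Summed, the 4 genes had 24.96 RPM in WT and 21.5 in KO, a ratio of 0.863 (0.746 to 0.999). With the trend removed Ttk stayed past 1.5-fold, at -0.79, and Bub1 was at 0.06.

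Motor and kinetochore genes were spread widely. Cenpf, a large kinetochore protein, had 49 reads in WT and 147 in KO, 1.55-fold higher (1.12 to 2.19). Its namesake Cenpe, a kinetochore motor, had 99 and 166 (1.15-fold lower, 0.890 to 1.49), and the ratio of Cenpf to Cenpe shifted 1.79-fold (1.17 to 2.76). Kif11, the motor that pushes spindle poles apart, had 177 and 371 (1.08-fold, 0.904 to 1.304). Kif20a, which acts at the midzone in cytokinesis, had 85 and 213 (1.296-fold higher, 1.003 to 1.69), and exons of Cdc23 on the opposite strand overlap 29.3% of its exons. Kif23, the motor of centralspindlin, had 95 and 129 and was 1.42-fold lower (1.08 to 1.87). With total gene reads the log2 ratio of Cenpf, 0.55, missed the 1.5-fold size.

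Spindle proteins had the lowest summed ratio of the mitosis roles, 0.823 (0.724 to 0.937). Mitotic kinases and chromosomal passengers, at 0.848 (0.733 to 0.983), and the spindle checkpoint, at 0.863 (0.746 to 0.999), were close to it. With the GC and length trend removed the median log2 ratio of the spindle protein genes went from -0.37 to -0.22. Prc1, which bundles microtubules at the midzone, had 132 and 169 reads and was 1.51-fold lower (1.19 to 1.91), close to the 1.5-fold line. With the trend removed or with a pseudocount of 5 it was under that line, at log2 ratios of -0.53 and -0.58. Exons of Rccd1 on the opposite strand overlap 11.1% of the Prc1 exons. Nusap1 had 89 and 130 (1.32-fold lower, 0.999 to 1.75), Hmmr 57 and 87 (1.27-fold lower, 0.891 to 1.79) and Tpx2, which activates Aurka on the spindle, 112 and 235 (1.09-fold, 0.863 to 1.37).

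Condensin compacts chromosomes, and its 4 genes among the members lay within 1.13-fold between the libraries. In level, 1 of them stood far above all other members. Smc4 had 17674 reads in WT and 33643 in KO (0.984-fold, 0.967 to 1.003) and took 79.1% (78.5 to 79.6) and 79.5% (79.1 to 79.9) of all mitosis reads. Per length it stood at 28.3 times its partner Smc2 in WT and 30.5 times in KO. Smc2 had 657 and 1161 reads (0.914-fold, 0.830 to 1.01), Ncapd2 728 and 1590 (1.13-fold higher, 1.03 to 1.24) and Ncaph 107 and 188 (0.909-fold, 0.713 to 1.16). The sum without Smc4 was an alternative added after its share was seen.

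Other genes of the same processes, from lists made by function, were counted in the same way, against the 7.43% of all genes that were at least 1.5-fold higher and the 5.51% lower. All 45 further replication genes were above the floor, 1 was at least 1.5-fold higher, none lower, and the median log2 ratio was -0.03. Gins1, a partner of Gins2 in the active helicase, had 23 and 73 reads (1.64-fold higher, 1.02 to 2.75). Mcm10, the clamp loader subunit Rfc3 and the polymerase subunit Pole2 had log2 ratios of -0.57, -0.53 and -0.50. Of 44 further mitosis genes that the table holds, 42 were above the floor, 4 at least 1.5-fold higher and 1 lower, counts near those shares, with a median of 0.01. Racgap1, the partner of Kif23 in centralspindlin, had 491 reads in WT and 472 in KO, 2.01-fold lower (1.77 to 2.29), on far more reads than the other 4. Those were Cenpm (9 and 39), Ube2c (20 and 71), Cdca3 (36 and 111) and Cenph (13 and 40).

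**Figure D4:**
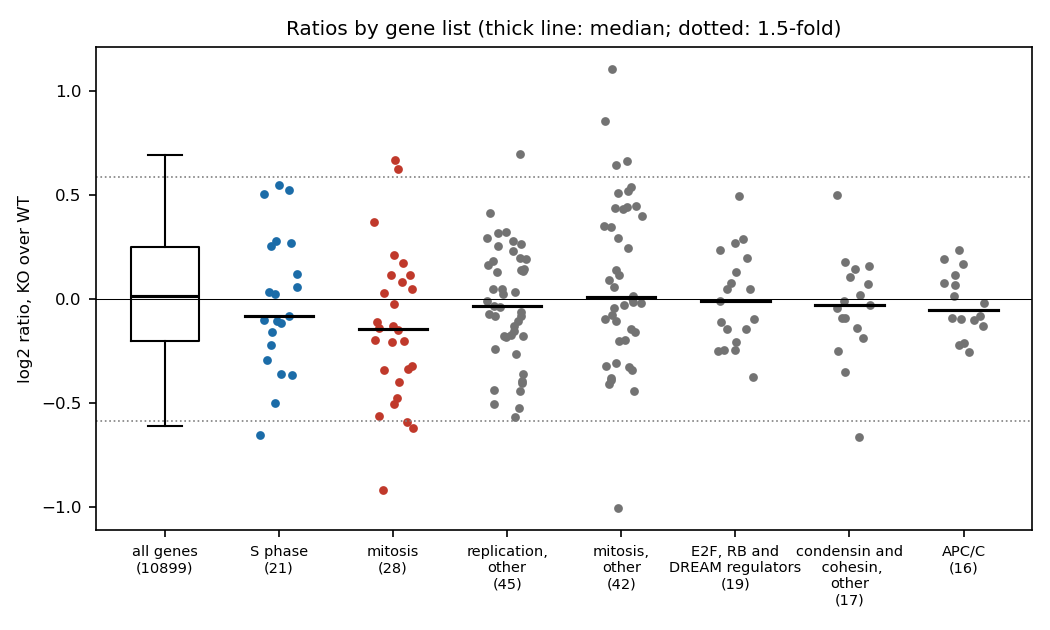
Log2 ratio of KO over WT for each gene of 7 lists (points) and for all genes above the floor (box of quartiles, whiskers from the percentiles 5 to 95). The number of genes stands under each name, thick lines mark medians and dotted lines 1.5-fold. List medians run from -0.14 for mitosis to 0.01 for further mitosis genes.

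The ratio of the members moved with the GC content of their transcripts, as it did over all genes. Across the 49 genes, which share the same 2 libraries and are not replicates, the Spearman correlation of the log2 ratio with GC content was 0.37 (0.41 over 10467 genes). It was 0.55 for the S phase and 0.13 for the mitosis list. Of the 14 members under 45% GC 2 had a ratio above 0, with a median of -0.20 (-0.14 for all such genes). Of the 4 members at 55% GC or more, Cdt1, E2f1, Plk1 and Cdc20, 3 had a ratio above 0, with a median of 0.24 (0.29 for all such genes). The median GC content was 50.2% for the S phase and 46.4% for the mitosis list. With a spline trend on length and GC content taken out, the medians were -0.00335 and -0.11. Cdk1 and Cenpf were then the genes at least 1.5-fold higher (background 4.39%) and Ttk the one lower (background 5.89%). The part of GC content in the differences between members was not tested further.

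**Figure D5:**
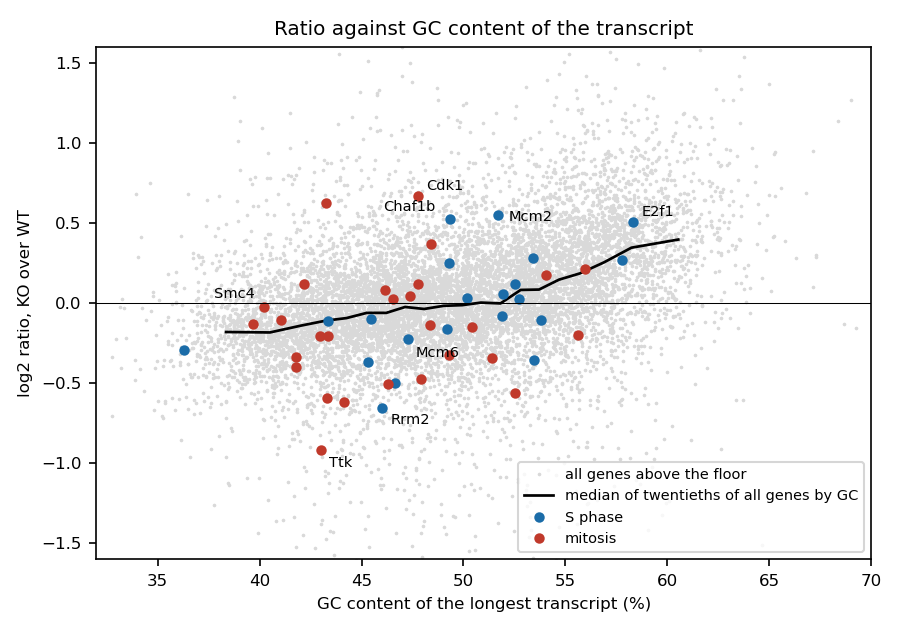
Log2 ratio of KO over WT against the GC content of the longest transcript, in percent. Grey points are all genes above the floor, the line joins medians of equal parts of all genes by GC content, and blue and red points are the S phase and mitosis genes. Points beyond the axis limits are not drawn. The line rises with GC content, and Cdk1, Chaf1b, Rrm2 and Ttk lie away from it.

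All 7 genes of the Treg marker list were present in both libraries, and they did not lie on 1 side. Cd4, Cd3e and Cd3d on this list are also expressed by other CD4+ T cells, for which no list was made. Foxp3 had 8540 and 30579 reads (1.85-fold higher in KO), and Il2ra, Cd4, Cd3e and Cd3d were 1.36-, 1.21-, 1.13- and 1.11-fold higher. Ctla4 had 1712 and 2056 reads (1.61-fold lower) and Ikzf2 3859 and 4706 (1.59-fold lower). With the GC and length trend removed Ctla4 and Ikzf2 were under 1.5-fold, at log2 ratios of -0.52 and -0.57, and Foxp3 was at 0.73. Markers of other cells that could bring cycling RNA into the sort were present too. Each of their list sums was below that of the Treg marker list with its shared T cell genes, 4959 RPM in WT and 6247 in KO. Single genes overlapped in level: Csf1r stood at 266 and 235 RPM, above Ctla4 at 143 and 88.8. The monocyte and macrophage list (5 genes in the table, none at 0) summed to 475 RPM in WT and 426 in KO, led by Csf1r with 3192 and 5440 reads. The B cell list (6 genes, none at 0) summed to 118 and 96.4. Its most counted gene, Cd79a, had 432 and 915 reads (1.10-fold, 0.976 to 1.23), while Cd79b (390 and 366) was 2.06-fold and Ms4a1 (315 and 372) 1.64-fold lower. With the trend removed Cd79b was at a log2 ratio of -1.18 and Ms4a1, under 1.5-fold, at -0.57. Plasma and germinal centre B cell genes summed to 28.9 and 19.6, led by Prdm1 with 259 and 328 reads. Thymocyte genes summed to 28.5 and 26.9, with Rag2 and Ptcra at 0 in both and Cd1d1 holding most of the reads. Erythroid genes (7) summed to 14.3 and 5.57, with 4 globin genes listed at 0. The 2 above the floor, Alas2 (115 and 93 reads) and Slc4a1 (50 and 30), were 2.39- and 3.22-fold lower in KO. Why the globin genes stood at 0 beside them was not tested. CD8 T cell, NK cell, dendritic cell and neutrophil genes summed to 33.6 and 41.5, 6.43 and 7.43, 19.7 and 25.3, and 0.751 and 1.86. The part of these cells in the proliferation genes was not tested.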

How the data were processed

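RNA of 2 pools of sorted mouse Treg cells was sequenced, 1 library per group. Per the labels' protocols, RNA was extracted with Trizol, mRNA captured on beads and libraries made with a transposase kit. The build mm10, HTSeq and TopHat2 2.0.3 are named in the submitters' processing notes. No source used here gives the annotation, strand setting or read length. The authors deposited raw read counts per gene symbol. The 5 rows of reads outside genes (23.4% of entries in each library) were left out.

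Counts were scaled with TMM (edgeR 4.0.16, R 4.3.3) to the mean effective library size, with a pseudocount of 1 and a floor of a mean of 20 reads. Folds and intervals of single genes use no pseudocount; calls and log2 ratios use it. Ratio intervals are exact conditional binomial ones (Clopper-Pearson), list sums have exact Poisson ones, and ratios of partner genes (18 pairs, chosen with the values known) exact conditional odds ratio ones. edgeR and DESeq2 1.42.0 gave scaling only, and no test was run. Lengths (union of all annotated exons, which lowers levels of genes with rare long forms) and GC content (longest transcript) come from GENCODE M21, which matched 96.0% of genes above the floor; the trend was a spline fit on both. The scripts were tested on simulated data. Python 3.11.15, pandas 2.3.3, scipy 1.17.1 and matplotlib 3.10.9 were used.

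All 49 members are named, up to 4 genes with the largest absolute ratio from each further list, and the markers with most reads; Cenph, some markers and the partner pairs were added after their values were seen. The members, lists, settings and alternatives were chosen with earlier results of these data known. The targeted gene is not reported here.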

Additional observations from a re-analysis of the deposited data

How the results depend on the processing

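Alternatives covered scaling, pseudocount, floor, size of difference, a GC and length trend, and, chosen after seeing the data, leaving out Smc4 or the 15 members whose exons overlap another gene. The median log2 ratio ran from -0.16 to 0.03 for S phase, above 0 with a floor of 100 reads and without overlapping members, and from -0.22 to -0.11 for mitosis. The log2 ratio of summed reads for mitosis was -0.031 as reported, 0.10 with the trend removed, -0.11 with total gene reads and -0.062 without Smc4. For S phase it was 0.019, -0.058 with total gene reads and -0.0021 without overlapping members. At 2-fold no member of either list was higher (0) or lower (0). With the trend removed 0 S phase and 1 mitosis member were at least 1.5-fold lower. With a floor of 100 reads, which keeps 35 members, 0 mitosis members were higher and 1 lower. With total gene reads, which shifts ratios by -0.077, 1 mitosis member was higher. Of the 49 single ratios 6 changed sign with the trend removed and 5 with total gene reads, all of them from ratios within 1.5-fold. No paired analysis was possible because each group has 1 library, and for the same reason no library could be left out. Depth limits the 14 members under a mean of 100 reads.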

Other observations

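Lists of machinery around the members were counted against all genes above the floor, of which 12.9% were at least 1.5-fold different and 5.51% at least 1.5-fold lower. Of 19 regulators of the E2F, RB and DREAM system none was 1.5-fold different, and the median log2 ratio was -0.01. Lin37, a MuvB subunit, had 226 and 616 reads (1.41-fold higher, 1.21 to 1.65) and the E2F partner Tfdp2 418 and 622 (0.770-fold, 0.679 to 0.873). Foxm1, a driver of mitosis genes, had 160 and 378 (1.22-fold higher, 1.01 to 1.48) and the repressor E2f8 72 and 168 (1.21-fold, 0.910 to 1.61). With the trend on GC content and length removed, Lin37 and Foxm1 were at log2 ratios of 0.24 and 0.13.

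All 16 genes of the anaphase-promoting complex and its regulators lay within 1.5-fold, as most genes did, with a median of -0.05 and log2 ratios from -0.25 (Anapc15) to 0.24 (Anapc13). Cdc16 and Anapc4 were both 1.16-fold lower (1.05 to 1.296 and 1.06 to 1.26). Of 17 further condensin and cohesin genes 1 was at least 1.5-fold lower, near the share of all genes: Ncapg, which works with Ncapd2 and Ncaph in condensin I, with 89 and 108 reads (1.59-fold lower, 1.19 to 2.13). Its log2 ratio was -0.54 with the trend removed, under 1.5-fold. Cdca5 (25 and 69 reads), Ncapg2 (177 and 268) and Esco2 (34 and 55) had log2 ratios of 0.50, -0.35 and -0.25.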
